A study of Drosophila melanogaster with 13 samples.

Results

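The RabX genes are 5 Drosophila melanogaster members of the Rab family of small GTPases, RabX1, RabX2, RabX4, RabX5 and RabX6. They were taken as every gene whose single platform symbol starts with RabX, each with 1 probe set, out of 11982 genes that had a probe set of exactly 1 symbol. RNA from whole testes was hybridised to 13 expression arrays, 1 per sample, in 5 genotype groups. The aly[2]/aly[5p] testes (3 arrays) carry mutations of always early, a component of the meiotic arrest complex tMAC, and the sa[1]/sa[2] testes (3 arrays) carry mutations of spermatocyte arrest, a testis-specific TBP-associated factor. The magellan mutants, with mutations of the polyubiquitin gene Ubi-p63E, came as magn[12c]/magn[23b] (2 arrays) and as magn[12c]/magn[12c];pSC2 (2 arrays), and the labels do not describe pSC2. The strain called WT (3 arrays) carries the markers red[1] and e[1], so a marker strain and not an unmarked stock is the reference for every mutant. Flies of 0 to 1 day after eclosion, grown at 25 °C, were dissected, and their testes were freed of seminal vesicles and accessory glands. The design text names the samples biological replicates, with no word on separate crosses or vials, so p-values measure only the spread between these samples.

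Rab proteins are molecular switches of membrane traffic. They are carried to membranes with a lipid tail, are turned on by guanine nucleotide exchange factors (GEFs), recruit effectors that move, tether or fuse vesicles, and are turned off by GTPase-activating proteins (GAPs). The RabX names are fly names, given to Rab genes without a clear mammalian counterpart. Male germ cells depend on Rab-directed traffic when spermatocytes divide by cytokinesis and when spermatids elongate.

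RabX2 was chosen by its measured values, since its high level in sa and magn testes against WT was already known. Its levels are therefore a description with no test, except between the 2 magn genotypes. The other 4 genes came with it by name. Values are the authors' log2 probe set values, in which a difference of 1 is 2-fold, and a value of 4 was taken as the lower limit of a usable signal. Genes were tested if 3 or more of the 13 arrays gave a value above 4, which 8719 genes and 4 of the 5 RabX genes did. A gene was called higher or lower when limma's adjusted p (Benjamini-Hochberg, over the 8719 genes of a comparison) was under 0.05 and the change at least 2-fold. Levels of different genes were not set against each other, since each probe set has its own brightness.

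The mutated genes were read first as a check of the labels. Ubi-p63E read at most 5.47 in the magn arrays, against at least 13.57 in the aly, sa and WT arrays, and the sa gene read at most 6.25 in sa testes, against at least 10.80 in all others. The aly gene read 7.23 to 7.35 in aly testes and 5.95 to 6.28 in WT, so its transcript level does not mark the mutants. Many genes moved with genotype: the median change over all tested genes against WT was 0.77 in aly, 0.66 in sa, 0.33 in magn[12c]/magn[23b] and 0.46 in magn[12c]/magn[12c];pSC2 (log2), and the 29 ribosomal protein genes used as a scale moved by 1.46, 1.42, 0.90 and 1.14. Calls that were higher made up 64.73%, 65.43%, 67.22% and 65.76% of calls in these 4 comparisons, and 31.99%, 18.54%, 19.89% and 16.83% when the median of those genes was set equal in all arrays, a step named centring here. Changes are given on both scales where the scale decides them. Between the 2 magn genotypes calls were 78.73% higher as deposited and 91.12% on the second scale. For magn against aly these shares were 43.93% and 55.81%, and for magn against sa 49.61% and 73.47%. For sa against aly 53.01% of calls were higher as deposited and 40.88% after quantile normalization.

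RabX2 was high in sa and both magn genotypes, the pattern it was chosen by. It read 11.05 and 11.05 in magn[12c]/magn[23b] testes and 9.73 and 9.83 in magn[12c]/magn[12c];pSC2 testes. In sa testes it read 9.02, 9.13 and 9.29. In aly testes it read 4.58, 5.24 and 4.68, and in WT testes 3.22, 3.60 and 4.18. The arrays of sa and of both magn genotypes were high, those of aly lay just above the limit of 4, and only 1 of the 3 WT arrays lay above it. No pair of genotypes overlapped, which was also so for RabX1. How many of all tested genes separate in this way was not counted. In whole testes, fewer cells of a type and less RNA per cell cannot be told apart.

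**Figure D1:**
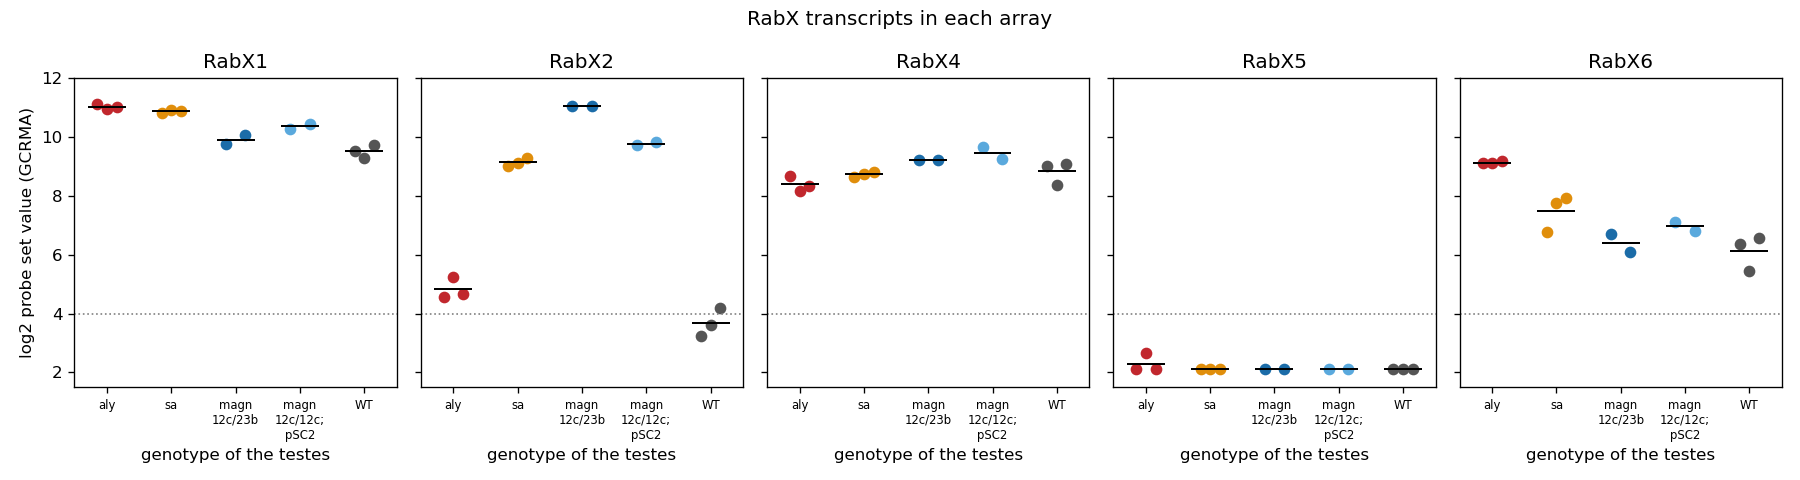
Each point is 1 array and each bar a group mean of the log2 probe set value (vertical axis) for the 5 RabX genes in the 5 genotypes (horizontal axis), with a dotted line at 4. RabX2 lies between 9.02 and 11.05 in sa and magn testes and between 3.22 and 5.24 in aly and WT testes, RabX6 is highest in aly, and RabX5 is at the floor in 12 of 13 arrays.

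The group means of RabX2 were 11.05 ± 0.0037 in magn[12c]/magn[23b], 9.78 ± 0.07 in magn[12c]/magn[12c];pSC2, 9.15 ± 0.13 in sa, 4.83 ± 0.36 in aly and 3.67 ± 0.48 in WT (log2, SD, n = 2, 2, 3, 3 and 3). Against WT these are changes of 7.38, 6.11, 5.48 and 1.16 on the log2 scale. With values under 4 raised to 4, which removes the part of the difference that lies in the background, they were 6.99, 5.72, 5.09 and 0.77. The sa and magn contrasts are the ones that chose the gene, and the WT mean lies below 4, so the sizes rest on a WT signal at the limit of measurement. Centring on ribosomal protein genes left RabX2 at 6.52 in magn[12c]/magn[23b], 4.98 in magn[12c]/magn[12c];pSC2 and 4.05 in sa. The difference in aly depended on the scale, at -0.23 after that centring and 2.06 after quantile normalization.

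The high level in sa and both magn genotypes restates how RabX2 was chosen, so its differences from aly are a description too. RabX2 stood 4.31 higher in sa than in aly testes and 5.58 higher in magn than in aly testes (log2, with the 2 magn means averaged), and centring on ribosomal protein genes kept both directions. After quantile normalization these differences were 3.25 and 4.68. The comparisons of sa and magn with WT share the 3 WT arrays.

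The 2 magn genotypes differed in RabX2. The transcript was 2.41-fold higher in magn[12c]/magn[23b] than in magn[12c]/magn[12c];pSC2 testes (log2 difference 1.27, SE 0.33, 95% interval 0.56 to 1.98, adjusted p = 0.0193, limma), where 7.94% of all tested genes were called higher and 2.14% lower. The difference kept its size, 1.22 to 1.32, when any 1 of the 4 arrays was left out, but the adjusted p was then between 0.0747 and 0.108 (limma, with the lone array assumed to vary like the other groups), and the call was lost each time. Over all alternatives the adjusted p ranged from 0.00412 to 0.108. Markers of the accessory gland differed between the same 2 genotypes: the summed level of 10 of 11 listed genes, none of them at or below 4, was 13.72 to 13.88 in magn[12c]/magn[23b] and 16.64 to 16.65 in magn[12c]/magn[12c];pSC2 (log2). Signs of RNA quality differed too: the 3' minus 5' difference was 0.535 to 0.717 in magn[12c]/magn[23b] and 0.958 to 1.82 in magn[12c]/magn[12c];pSC2 for actin, and 1.73 to 1.94 and 1.99 to 2.62 for eIF4a, while for GAPDH it overlapped, at 1.12 to 1.496 and 1.46 to 1.97 (log2). The part of these in the RabX2 difference was not tested.

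The summed levels of neuron and hemocyte markers moved with the RabX2 groups, the second in part, but the median of the neuron genes did not. The summed level of 6 of 8 listed neuron genes was 10.03 to 10.41 in magn[12c]/magn[23b], 10.18 to 10.26 in magn[12c]/magn[12c];pSC2, 10.15 to 10.68 in sa, 9.70 to 10.02 in aly and 9.33 to 9.79 in WT (log2). The lowest magn array, at 10.025, and the highest aly array, at 10.023, nearly met, and the defining markers elav, futsch and para lay at or below 4 in every group. The median of these neuron genes was 2.47 to 2.72 in magn[12c]/magn[23b] and 2.73 to 2.78 in magn[12c]/magn[12c];pSC2. It was 4.92 to 5.11 in sa, 2.96 to 3.38 in aly and 4.58 to 4.79 in WT. Of 3 neuron genes tested, 1 was called higher and 1 lower in each magn genotype against WT. The hemocyte summed level over 9 of 10 listed genes was 10.34 to 11.07 in magn[12c]/magn[23b], 11.03 to 11.07 in magn[12c]/magn[12c];pSC2, 10.89 to 11.20 in sa, 9.60 to 10.65 in aly and 9.38 to 9.74 in WT (log2). The defining markers He and eater lay at or below 4 in every group. The 18S rRNA probe set read 10.38 to 12.07 in magn[12c]/magn[23b], 10.31 to 12.75 in magn[12c]/magn[12c];pSC2, 6.99 to 12.92 in sa, 9.34 to 10.42 in aly and 7.36 to 7.79 in WT. Their part in the RabX2 result was not tested.

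The 5 named genes most similar to RabX2 by Pearson's r over the 13 arrays, which fall into 5 genotypes and so are not independent points, were Adar (r = 0.98), which encodes an RNA-editing adenosine deaminase, mthl8 (0.97), a methuselah-like receptor gene, corn (0.97), the juvenile hormone-inducible gene JhI-26 (0.96), and Sptr (0.96), which encodes a sepiapterin reductase. The gene mthl8 had the same on-off shape, with group means of 7.98 in magn[12c]/magn[23b], 8.08 in magn[12c]/magn[12c];pSC2, 7.22 in sa, 2.77 in aly and 2.93 in WT (log2). JhI-26, like RabX2, was highest in magn[12c]/magn[23b], at 8.75, and read 6.21 in magn[12c]/magn[12c];pSC2, 6.75 in sa, 3.51 in aly and 3.08 in WT. Adar spanned less, with 7.53 in magn[12c]/magn[23b] and 4.32 in WT.

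**Figure D2:**
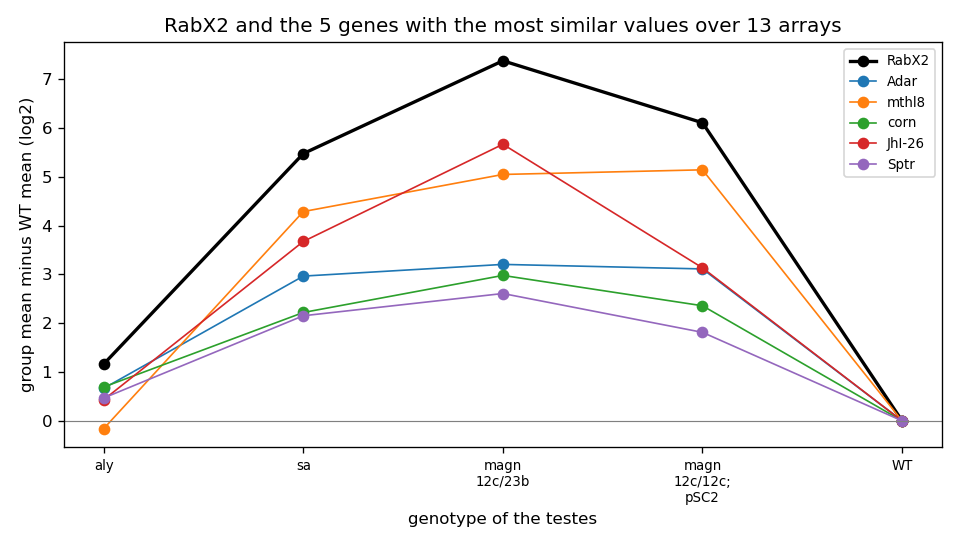
Lines give the group mean minus the WT mean (vertical axis, log2) in each genotype (horizontal axis) for RabX2 and the 5 named genes with the highest Pearson's r to it over 13 arrays. All 6 genes are higher in sa and both magn genotypes than in aly and WT. In aly RabX2 lies 1.16 above WT. RabX2 spans the widest range, up to 7.38.

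RabX6 followed another order, with its maximum in aly. It read 9.11, 9.12 and 9.18 in aly testes, 6.78, 7.76 and 7.94 in sa testes, 6.70 and 6.09 in magn[12c]/magn[23b], 7.12 and 6.81 in magn[12c]/magn[12c];pSC2, and 6.37, 5.44 and 6.55 in WT testes. The aly arrays stood above all others, the sa arrays above WT, and magn[12c]/magn[23b] overlapped with WT. How many other genes separate in this way was not counted.

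RabX6 rose 8.08-fold in aly against WT (log2 change 3.02, SE 0.35, adjusted p = 2.33e-06, limma), where 45.6% of all tested genes were called higher and 24.8% lower. Centred on ribosomal protein genes, the change was 1.62 and still called. It was also called lower in sa than in aly (log2 change -1.65, SE 0.35, adjusted p = 0.00117, limma; 21.2% of tested genes called higher and 18.8% lower) and in magn than in aly (-2.46, SE 0.33, adjusted p = 1.23e-05, limma; 26.2% called higher and 33.4% lower), and both calls held under each of the 3 other scalings. RabX6 was thus called higher in aly than in WT, sa and magn.

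In sa testes RabX6 rose 2.58-fold over WT (log2 change 1.37, SE 0.35, adjusted p = 0.00286, limma), beside 40.9% of tested genes called higher and 21.6% lower. That call depended on the scale, since the change was 0.93 after quantile normalization, 0.94 after centring on all tested genes and -0.06 after centring on ribosomal protein genes. The 2 magn genotypes were not called against WT: the change was 0.27 in magn[12c]/magn[23b] (95% interval -0.57 to 1.12) and 0.84 in magn[12c]/magn[12c];pSC2 (-0.00 to 1.69, adjusted p = 0.0744, limma), and without WT replicate 3 the second was called at 1.06 (adjusted p = 0.0437, limma; 0.0405 to 0.566 over its alternatives). The difference of magn from sa, -0.81, missed the 2-fold minimum (adjusted p = 0.0445, limma; 19.1% of tested genes called higher and 19.4% lower), and without sa replicate 1, the lowest sa array for this gene, it was -1.17 and called (adjusted p = 0.00644, limma; 0.00032 to 0.378 over its alternatives).

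RabX1, also known as chrowded and placed at late endosomes in fly ovarian follicle cells, was higher in aly and sa than in WT. It read 11.13, 10.97 and 11.02 in aly testes and 10.82, 10.91 and 10.89 in sa testes. The magn[12c]/magn[23b] arrays read 9.75 and 10.06, those of magn[12c]/magn[12c];pSC2 10.29 and 10.44, and WT 9.54, 9.29 and 9.74. The groups, of 2 or 3 arrays each, followed each other without overlap from aly down to WT. The share of all tested genes so separated was not counted.

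RabX1 rose 2.86-fold in aly (log2 change 1.52, SE 0.14, adjusted p = 3.08e-07) and 2.55-fold in sa (1.35, SE 0.14, adjusted p = 1.46e-06; both limma). Neither call outlasted centring on ribosomal protein genes, which gave 0.12 for aly and -0.08 for sa, so on that scale no change of RabX1 was called in them. After centring on all tested genes the sa change was 0.92, under 2-fold. In magn[12c]/magn[12c];pSC2 the difference from WT was 0.84 (SE 0.16, adjusted p = 0.000484, limma), under the 2-fold minimum, and in magn[12c]/magn[23b] it was 0.38 (95% interval 0.03 to 0.73, adjusted p = 0.0593, limma). In magn[12c]/magn[12c];pSC2 32.2% of tested genes were called higher and 16.8% lower, and in magn[12c]/magn[23b] 25.5% and 12.4%. Both differences turned negative, to -0.29 and -0.48, after centring on ribosomal protein genes. Among neighbours in this order, 2 further pairs were not called apart: sa against aly differed by -0.17 (95% interval -0.48 to 0.15), and magn[12c]/magn[23b] against magn[12c]/magn[12c];pSC2 by -0.46 (-0.84 to -0.08, adjusted p = 0.0978, limma). Against aly and sa the magn mean was lower by less than 2-fold, with differences of -0.90 (adjusted p = 3.6e-05, limma) and -0.74 (adjusted p = 0.000345, limma).

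Spermatocyte markers moved in part with RabX1 and RabX6, being highest in aly and lowest in WT. The summed level of the 10 listed spermatocyte genes, none at or below 4 in any group, was 16.00 to 16.13 in aly, 14.75 to 14.89 in sa, 14.44 to 14.47 in magn[12c]/magn[23b], 14.88 to 14.94 in magn[12c]/magn[12c];pSC2 and 13.20 to 13.51 in WT (log2). The sa sums, which include the mutated sa gene, were not clearly above those of magn[12c]/magn[12c];pSC2. RabX1 averaged 10.88 in sa and 10.37 in that genotype, and RabX6 7.49 and 6.97. All 10 were called higher in aly, beside 45.6% of all tested genes. In sa 6 were called higher and 2 lower, beside 40.9% and 21.6%. In each magn genotype 7 were called higher and 0 lower, beside 25.5% and 32.2% called higher. Spermatid markers, 11 of 12 listed, ran the other way: their summed level was 10.97 to 11.20 in aly, 14.03 to 14.86 in sa, 17.04 to 17.09 in magn[12c]/magn[23b], 16.61 to 16.71 in magn[12c]/magn[12c];pSC2 and 17.17 to 17.27 in WT, with Mst33A, c-cup, dj, fzo, t-cup and w-cup at or below 4 in aly. The part of these cell types in the RabX results was not tested.

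WT replicate 2 stood apart in its accessory gland markers, with a summed level of 17.28 against 14.24 to 15.04 in the other WT arrays, and it was the lowest WT array for RabX1, RabX4 and RabX6. Without it, RabX1 was higher by 1.40 in aly and 1.23 in sa, and RabX6 by 2.67 in aly and 1.03 in sa, all still called. Signs of RNA quality differed between sa and WT. The 3' minus 5' difference was 1.06 to 2.24 in sa and 0.94 to 1.04 in WT for actin (log2). For GAPDH it was 1.48 to 2.15 and 1.085 to 1.29, while for eIF4a it overlapped, at 2.725 to 3.75 and 2.27 to 2.79. Their part in the sa results was not tested.

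The genes most similar to RabX6 over the 13 arrays were vito (r = 0.99), DCTN4-p62 (0.99), a dynactin subunit gene, and mRpL27 (0.99), which encodes a mitochondrial ribosomal protein. Those most similar to RabX1 were HemK1 (0.99), the condensin gene SMC2 (0.99) and bsf (0.99). SMC2 ran over a wider range than RabX1 and in the same order, with means of 10.75 in aly, 10.31 in sa, 8.17 in magn[12c]/magn[23b], 9.36 in magn[12c]/magn[12c];pSC2 and 7.13 in WT (log2).

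RabX4 was not called in any comparison with WT on the deposited scale, but was called lower in aly and sa with arrays centred on ribosomal protein genes. It read 8.67, 8.18 and 8.35 in aly testes, 8.63, 8.74 and 8.83 in sa testes, 9.21 and 9.21 in magn[12c]/magn[23b], 9.67 and 9.27 in magn[12c]/magn[12c];pSC2, and 9.03, 8.37 and 9.10 in WT. Aly and sa overlapped with WT and with each other, and all 4 magn arrays lay above every other array. For how many other genes they do so was not counted.

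Its changes against WT were -0.43 in aly (95% interval -0.91 to 0.04, adjusted p = 0.0852), -0.10 in sa (-0.58 to 0.38, adjusted p = 0.693), 0.38 in magn[12c]/magn[23b] (-0.15 to 0.91, adjusted p = 0.207) and 0.64 in magn[12c]/magn[12c];pSC2 (0.11 to 1.17, adjusted p = 0.0352, under 2-fold; all limma). RabX4 lay below the median change of all tested genes in aly and sa. With arrays centred on ribosomal protein genes RabX4 was called lower in aly (-1.83, adjusted p = 2.13e-05, limma; 2.13e-05 to 0.273 over its alternatives) and in sa (-1.53, adjusted p = 0.000162, limma; 0.000157 to 1 over its alternatives).

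Magn testes had more RabX4 than aly testes on each scale, by 0.94 (SE 0.21, adjusted p = 0.000911, limma), just under 2-fold, and by 1.34 and called after centring on ribosomal protein genes. Leaving out aly replicate 1 or magn[12c]/magn[12c];pSC2 replicate 2 also brought it past 2-fold, to 1.08 and 1.04. The sheath muscle markers, 7 of 10 listed and none at or below 4, moved with this difference, with a summed level of 11.69 to 12.04 in magn[12c]/magn[23b], 11.58 to 12.03 in magn[12c]/magn[12c];pSC2, 9.35 to 10.23 in aly, 10.17 to 11.07 in sa and 11.31 to 12.53 in WT (log2), and their part was not tested. Against sa, magn testes had more RabX4 by 0.61 (SE 0.21, adjusted p = 0.0196, limma), under 2-fold. After centring on ribosomal protein genes that difference was 1.04 and called (adjusted p = 0.00342, limma). The genes most similar to RabX4 were dila (r = 0.89), TkR86C (0.89), a tachykinin receptor gene, and grp (0.88), the fly Chk1 kinase gene.

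RabX5 gave no signal in any genotype. It lay at the floor of 2.10 in 12 of the 13 arrays and at 2.64 in aly replicate 2, below the limit of 4 throughout, so it was not tested and its values have no order. At this array's sensitivity RabX5 transcript was not detectable in testes of any of the 5 genotypes.

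**Figure D3:**
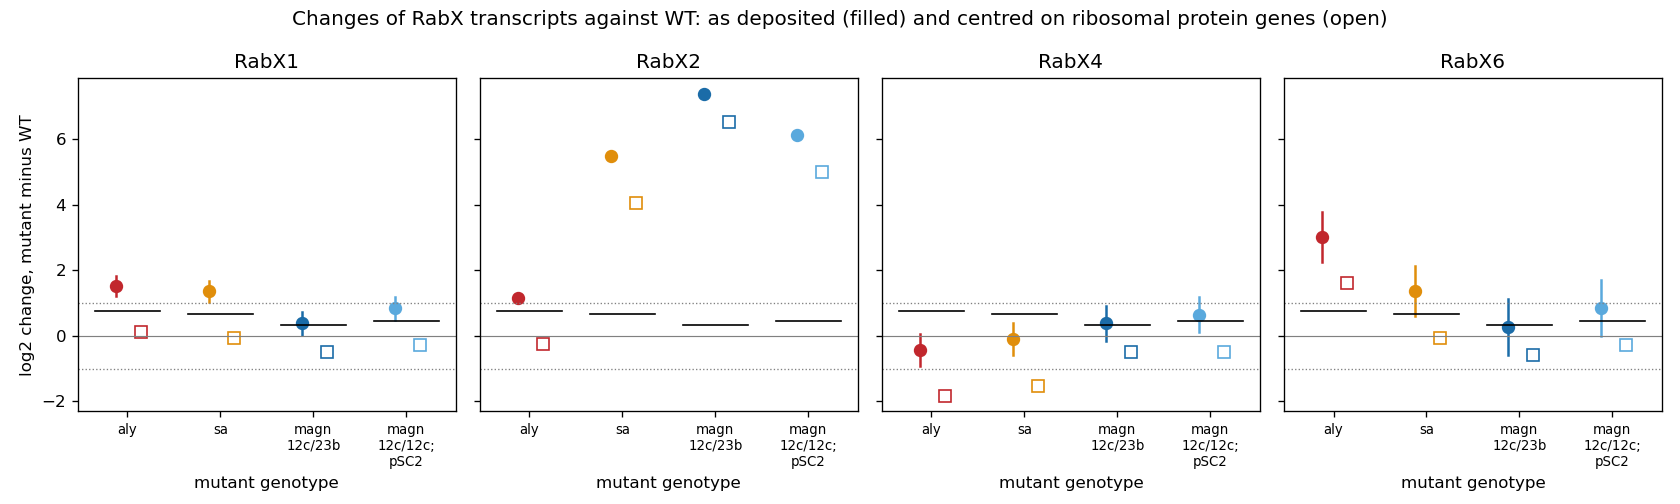
Filled circles give the log2 change of each tested RabX gene against WT (vertical axis) in 4 mutant genotypes (horizontal axis), with 95% intervals except for RabX2, which was not tested; open squares give the change with arrays centred on ribosomal protein genes, black bars the median change of all tested genes and dotted lines 2-fold. RabX6 in aly stays above 1 on both scales, RabX1 lies between -0.48 and 0.12 on the second, and RabX2 in sa and magn stays above 4 on both.

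Counting the 3 RabX genes with tests, 2 were called higher in aly (RabX1 and RabX6, beside 45.6% of all tested genes called higher), the same 2 in sa (beside 40.9%), and 0 in either magn genotype (beside 25.5% and 32.2%) by limma. At an unadjusted p under 0.05 and with no fold minimum, 1 passed in magn[12c]/magn[23b] (RabX1), beside 41.2% of all tested genes that passed so and were higher, and 2 in magn[12c]/magn[12c];pSC2 (RabX1 and RabX4), beside 45.3%. RabX2, the gene chosen by its pattern, is left out of these counts.

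Other Rab GTPases gave the family's range. Of 17 found on the array by symbol, 13 passed the filter. In aly 7 were called higher and 2 lower, with a median change of 1.05 against 0.77 over all tested genes; in sa 7 and 1 (median 1.09 against 0.66). In magn[12c]/magn[23b] 3 were called higher and 0 lower (0.45 against 0.33), and in magn[12c]/magn[12c];pSC2 4 and 0 (0.14 against 0.46). Over all tested genes 45.6%, 40.9%, 25.5% and 32.2% were called higher in these 4 genotypes and 24.8%, 21.6%, 12.4% and 16.8% lower. The counts called higher were thus near the background, most closely in the magn genotypes. Centred on ribosomal protein genes the calls were 3 higher and 4 lower in aly, 2 and 4 in sa, 0 and 3 in magn[12c]/magn[23b] and 0 and 6 in magn[12c]/magn[12c];pSC2.

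The changes of these 13 genes ran between -6.72 and 4.12 in aly, -1.26 and 2.92 in sa, -0.41 and 1.53 in magn[12c]/magn[23b], and -0.31 and 1.97 in magn[12c]/magn[12c];pSC2. RabX1, RabX4 and RabX6 lay inside the range of the other Rab genes in all 4 comparisons.

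**Figure D4:**
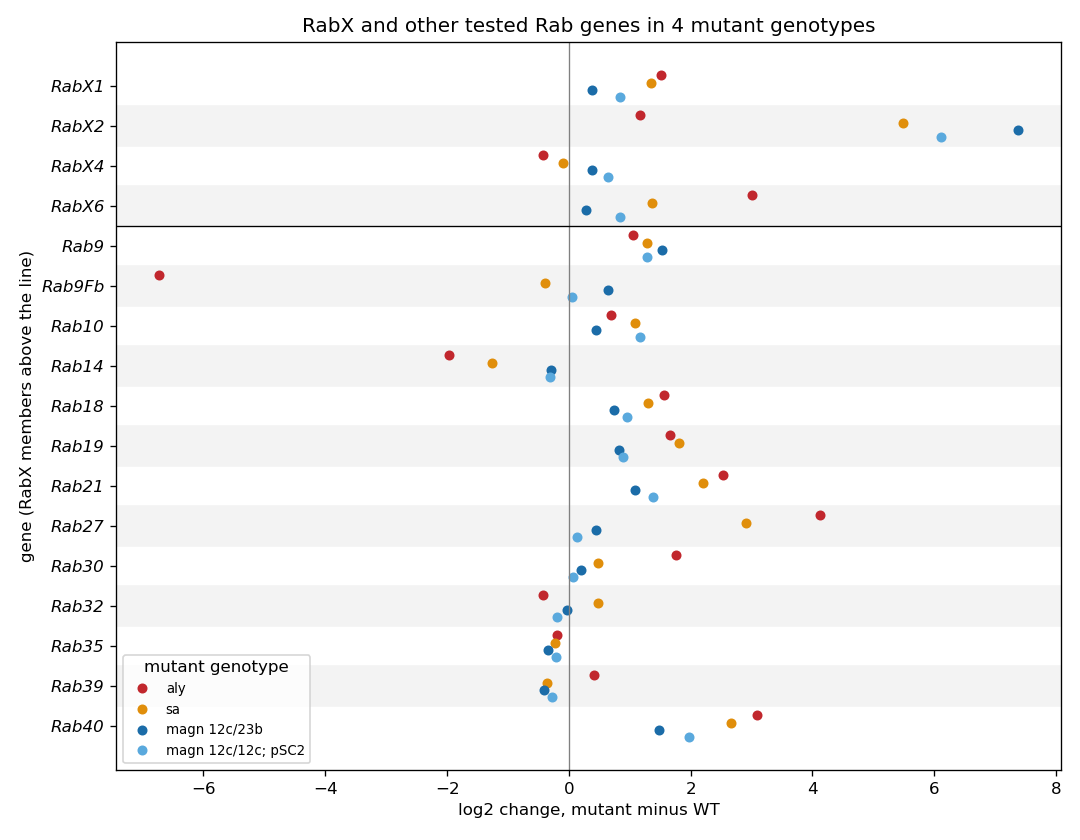
Points give the log2 change against WT (horizontal axis) of the 4 tested RabX genes, above the line, and of 13 other Rab genes, below it, coloured by mutant genotype. RabX2, chosen by its values in sa and magn, lies farthest to the right in them, and Rab9Fb in aly, at -6.72, farthest to the left.

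Rab9Fb had the largest fall among the 13. The RefSeq gene table lists RabX3 as an older name of Rab9Fb and of its neighbour Rab9Fa. Rab9Fb read 2.65 ± 0.13 in aly testes, below the limit of 4 in all 3 arrays, against 9.37 ± 0.28 in WT (log2, SD, n = 3 each), a fall of at least 41.4-fold (adjusted p = 4.35e-11, limma). It read 8.98 in sa, 10.02 in magn[12c]/magn[23b] and 9.42 in magn[12c]/magn[12c];pSC2, with no call against WT. RabX2 and Rab9Fb were both lower in aly than in sa and magn, but WT was high for Rab9Fb and low for RabX2.

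Among the others, Rab27, which acts in secretory vesicle release, read 8.09 in aly and 6.89 in sa, against 3.97 in WT (log2 changes 4.12 and 2.92, both called on each scale), and 4.42 and 4.11 in magn[12c]/magn[23b] and magn[12c]/magn[12c];pSC2. The WT arrays read 3.93 to 4.04 for Rab27, so these sizes rest on a WT signal at the limit of 4. Rab40, whose protein joins a Cullin ubiquitin ligase, was called higher in all 4 mutants, with changes of 3.08 in aly, 2.66 in sa, 1.48 in magn[12c]/magn[23b] and 1.97 in magn[12c]/magn[12c];pSC2, of which the last 2 were not called after centring on ribosomal protein genes. Rab21, an early endosomal Rab, was called higher in all 4 too, by 2.53 in aly, 2.20 in sa, 1.08 in magn[12c]/magn[23b] and 1.38 in magn[12c]/magn[12c];pSC2, and only the aly call held after that centring. Its magn[12c]/magn[23b] change was 0.97 without replicate 2 of that genotype and 0.92 without WT replicate 2, neither called.

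Rab14, which acts between endosomes and the Golgi, fell by 1.97 in aly and fell by 1.26 in sa on the log2 scale, where it was -0.96 without sa replicate 3 and -0.81 with array weights, neither called. Rab9, of late endosomes, was called higher in all 4 mutants by 1.05 in aly, 1.28 in sa, 1.53 in magn[12c]/magn[23b] and 1.29 in magn[12c]/magn[12c];pSC2, with none called after centring on ribosomal protein genes, which made the first 2 negative. The aly call was also lost without aly replicate 3 (0.75) or WT replicate 2 (0.89), and the magn[12c]/magn[12c];pSC2 call without its replicate 1 (1.14). Rab10, which directs basement membrane secretion in fly follicle cells, was called higher in sa (1.09) and magn[12c]/magn[12c];pSC2 (1.17), and after that centring the sa value was -0.34 and the magn value 0.04. The sa call was lost without sa replicate 2 (0.95) or WT replicate 1 (0.9985), and the magn call without replicate 2 of that genotype (0.99). 

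Of 4 genes for Rab prenylation and recycling, 4 were called higher in aly, 3 in sa, 1 in magn[12c]/magn[23b] and 2 in magn[12c]/magn[12c];pSC2, and 0 were lower. Over all tested genes 45.6%, 40.9%, 25.5% and 32.2% were called higher in these genotypes and 24.8%, 21.6%, 12.4% and 16.8% lower. The median changes were 2.00, 1.76, 0.92 and 1.25, against 0.77, 0.66, 0.33 and 0.46 over all tested genes (log2). Rep, the escort protein that presents Rabs for prenylation, rose by 3.24 in aly, 2.20 in sa, 1.39 in magn[12c]/magn[23b] and 1.76 in magn[12c]/magn[12c];pSC2. Rep read 3.66 to 4.43 in WT, so these sizes rest on a WT signal near the limit of 4. In magn[12c]/magn[23b] its change was 0.71 and not called without replicate 1, 2.07 without replicate 2, and 0.90 and not called after quantile normalization. After centring on ribosomal protein genes 1 of the 4 genes was called higher in aly and 0 in the other mutants, and 1 was lower in sa and 1 in magn[12c]/magn[12c];pSC2.

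Rab GEF genes were called higher in 7 of 8 cases in aly, 6 in sa, 2 in magn[12c]/magn[23b] and 5 in magn[12c]/magn[12c];pSC2, with 0 lower (medians 2.26, 2.06, 0.77 and 1.19, against 0.77, 0.66, 0.33 and 0.46 over all tested genes), or 4, 2, 1 and 3 higher and 1, 0, 1 and 1 lower after that centring. On the deposited scale the shares of all tested genes called higher were 45.6%, 40.9%, 25.5% and 32.2%, so the magn[12c]/magn[23b] count there was near the background. Crag, a GEF of fly Rab10 and Rab11, rose by 3.50, 3.15, 2.44 and 2.55 in these 4 genotypes and stayed called on each scale. Rabex-5, the Rab5 GEF, rose by 3.22, 2.93, 1.71 and 2.44, of which the third was not called after centring on ribosomal protein genes.

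Rab GAP genes went both ways, with 4 of 8 higher and 1 lower in aly, 4 and 2 in sa, 0 and 1 in magn[12c]/magn[23b], and 2 and 1 in magn[12c]/magn[12c];pSC2 (medians 1.10, 0.96, 0.07 and 0.10), or 2 and 3, 1 and 3, 0 and 4, and 0 and 4 after centring on ribosomal protein genes. On the deposited scale the counts in aly and sa were near the shares of all tested genes, 45.6% higher and 24.8% lower in aly and 40.9% and 21.6% in sa. In the magn genotypes those shares were 25.5% and 12.4%, and 32.2% and 16.8%. The TBC-domain gene plx rose by 3.01 in aly and 2.99 in sa, and read 2.13 and 2.45, below the limit of 4, in the 2 magn genotypes, against 4.51 in WT. It was the 1 GAP gene called lower in magn[12c]/magn[23b], but the fall is only bounded, at least 1.42-fold, and the call was lost with low values raised to 4. Rab3-GAP fell by 2.86 in aly and fell by 1.65 in sa on the log2 scale.

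Rab effector genes were higher in 5 of 10 cases and lower in 1 in aly, 5 and 0 in sa, 1 and 0 in magn[12c]/magn[23b], and 3 and 1 in magn[12c]/magn[12c];pSC2 (medians 1.16, 0.70, 0.31 and 0.73), or 2 and 4, 1 and 5, 0 and 4, and 0 and 4 after that centring. On the deposited scale the shares called higher in aly and sa were near those of all tested genes, 45.6% and 40.9% (24.8% and 21.6% lower). In the magn genotypes the shares of all tested genes were 25.5% and 32.2% (12.4% and 16.8% lower). Rph (Rabphilin), an effector that binds Rab27 and Rab3, rose by 4.25 in aly and by 1.38 in sa, where the change was -0.05 after centring on ribosomal protein genes and 0.95, not called, without WT replicate 2. Rph read 3.14 to 4.61 in WT, so its sizes rest on a WT signal near the limit of 4. Rph and Rab27 were both highest in aly.

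Of 7 genes for membrane traffic in spermatocyte cytokinesis, 5 were higher and 1 lower in aly, 4 and 1 in sa, 2 and 0 in magn[12c]/magn[23b], and 3 and 0 in magn[12c]/magn[12c];pSC2 (medians 2.08, 1.34, 0.75 and 0.95), or 2 and 2, 0 and 3, 2 and 2, and 2 and 2 after that centring. Over all tested genes on the deposited scale 45.6% were called higher and 24.8% lower in aly, 40.9% and 21.6% in sa, 25.5% and 12.4% in magn[12c]/magn[23b], and 32.2% and 16.8% in magn[12c]/magn[12c];pSC2. The 1 that fell was fwd, the phosphatidylinositol 4-kinase that recruits Rab11 in dividing spermatocytes, which fell by 3.03 in aly and fell by 1.94 in sa on the log2 scale. Cog7, a Golgi tethering subunit, rose by 4.75 in aly, 2.42 in sa, 2.17 in magn[12c]/magn[23b] and 2.55 in magn[12c]/magn[12c];pSC2, and only the sa value, 0.99, was not called after centring on ribosomal protein genes.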

How the data were processed

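The deposited table holds log2 probe set values that the authors summarised and normalized with GCRMA, per the submitters' processing notes; its version is not given in the sources used here. Total RNA was labelled with a 3' IVT kit, per the labels' protocols. All arrays share a floor of 2.10, and Pearson's r between replicate arrays was 0.9834 to 0.9962. Precision is limited by how many arrays a genotype has.

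Probe sets of exactly 1 symbol in the platform's table were kept, and each gene was represented by its brightest probe set on average. The 13 arrays entered 1 linear model with 5 genotype groups (R 4.3.3, limma 3.58.1; variances were moderated by eBayes, allowing a trend with intensity); figures used Python 3.11.15 and matplotlib 3.10.9. The step was tested on simulated data. Marker sums add linear values over a list and are given as log2. The RefSeq gene table (Release 6 plus ISO1 MT) gave older names and the order of genes; no coordinates or sequences are printed.

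The members and gene lists were chosen with earlier results of these data known. The rule for named genes took the 5 RabX genes, the mutated genes, the 5 named genes (for RabX2) or 3 (for the others) with the highest Pearson's r over the arrays, and per list up to 5 called genes with the largest change against WT, plus Rab genes called in both sa and magn. The lists were other Rab GTPases, Rab prenylation, Rab GEFs, GAPs and effectors, membrane traffic of spermatocyte cytokinesis, and cell type markers. Alternatives covered the filter, normalization, low values, the variance model, which arrays were fitted, magn as 1 group, the replicate number as a block, the fold minimum and leaving out each array. Of 23 same-numbered pairs of arrays, 7 correlated above 0.1 in their deviations from the group means (range -0.27 to 0.24), so the numbers were not taken to pair arrays.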

Additional observations from a re-analysis of the deposited data

Results flagged for a closer look

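RabX2 differed between the 2 magn genotypes. Its change against WT was 7.38 in magn[12c]/magn[23b] and 6.11 in magn[12c]/magn[12c];pSC2, and the test of the difference gave 1.27 (log2, SE 0.33, adjusted p = 0.0193, limma, n = 2 and 2). Both arrays of magn[12c]/magn[23b] lay above both arrays of the other genotype. The 2 genotypes did not overlap for RabX1, RabX4 and RabX6 either, and none of these was called between them. How many of all tested genes separate so was not counted. Between these genotypes 7.94% of all tested genes were called higher and 2.14% lower.

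RabX4 had 1 array apart from the other 3 magn arrays when the 4 were pooled as magn. magn[12c]/magn[12c];pSC2 replicate 1 read 9.67 and the others 9.21 to 9.27, so the gap was 0.856 of the whole range, above Dixon's critical value for 4 values. Chance flags about 1 in 20 such groups, and 4 RabX genes were examined.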

How the results depend on the processing

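The scale was the choice that mattered most. Setting ribosomal protein genes equal in all arrays ended the RabX1 call in aly (0.12) and turned RabX1 in sa (-0.0811), magn[12c]/magn[23b] (-0.48) and magn[12c]/magn[12c];pSC2 (-0.29). It turned RabX6 in sa (-0.0627), magn[12c]/magn[23b] (-0.59) and magn[12c]/magn[12c];pSC2 (-0.29), and RabX4 in magn[12c]/magn[23b] (-0.48), in magn[12c]/magn[12c];pSC2 (-0.49) and between the 2 magn genotypes (0.0087). It made RabX4 called lower in aly (-1.83) and sa (-1.53), and higher in magn than in aly (1.34) and in sa (1.04). It turned Rab9 in aly (-0.35) and sa (-0.15), Rab10 in sa (-0.34) and Rph in sa (-0.05), and took RabX2 to -0.23 in aly. Raising values under 4 to 4 as well, a choice made after seeing the data, changed among these only RabX2 in aly (-0.63) and Rph in sa (-0.34). After centring on all tested genes RabX1 (0.92) and RabX6 (0.94) in sa were not called, nor was RabX6 in sa after quantile normalization (0.93). RabX6 in magn[12c]/magn[23b] turned after quantile normalization (-0.31), centring on all tested genes (-0.0876) and array weights (-0.0857). Quantile normalization moved RabX2 in aly to 2.06. Without a fold minimum RabX1 (0.84) and RabX4 (0.64) in magn[12c]/magn[12c];pSC2 passed, and 1431 in place of 879 genes were called between the magn genotypes and 5571 in place of 3352 for magn against sa.

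Leaving out single arrays gave 1.22 to 1.32 for RabX2 between the magn genotypes, -0.33 to 0.0321 for RabX4 in sa (turned without WT replicate 3), -0.0663 to 0.58 for RabX6 in magn[12c]/magn[23b] (turned without its replicate 1, at -0.03, or WT replicate 2) and 0.50 to 1.06 for RabX6 in magn[12c]/magn[12c];pSC2. The genes called between the magn genotypes numbered 476 to 1007, the lowest without magn[12c]/magn[12c];pSC2 replicate 2.

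With the replicate number as a block, all 85 results kept their direction and their side of the threshold (RabX6 in aly 3.02, RabX2 between the magn genotypes 1.27). No RabX gene had another probe set, so that alternative was not run. The filter on low values and the variance trend changed no call of a RabX gene.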

Other observations

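Among genes next to RabX2 on the X chromosome, none with a signal was high in sa and magn and low in both aly and WT. Of the 3 nearest genes with a probe set on each side, by the order of the RefSeq gene table and chosen after the RabX2 values were known, CG32683 and CG12640 read at most 2.28 in every group mean. Without a usable signal these 2 can show no pattern. The odorant receptor gene Or9a read 6.50 in aly testes and 2.10 in sa, in both magn genotypes and in WT (log2). The phosphatase gene flw read 7.69 in aly and 8.98 to 9.14 in the other genotypes. Psf3, a DNA replication gene, read 8.68 in aly, 8.13 in sa, 9.11 in magn[12c]/magn[23b], 7.79 in magn[12c]/magn[12c];pSC2 and 6.67 in WT. Its changes against WT in these mutants, 2.01, 1.46, 2.44 and 1.12, were each called higher. Neb-cGP read 12.97 in aly, 13.51 in sa, 12.49 in magn[12c]/magn[23b], 12.61 in magn[12c]/magn[12c];pSC2 and 12.10 in WT.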
